A study of Mus musculus with 4 samples.

Results

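The microRNAs (miRNAs) described here are 4 strands known from blood cell lineages: mmu-miR-142-3p, mmu-miR-142-5p, mmu-miR-150-5p and mmu-miR-223-3p. They were chosen by name from the 1265 mouse miRNAs on each array, and each was read by 1 spot per array. The samples were esophagus and serum of L2-IL-1β mice, whose transgene encodes the human inflammatory cytokine interleukin-1β under an Epstein-Barr virus promoter that is active in the squamous epithelium of esophagus and forestomach. They develop Barrett's esophagus, in which columnar cells take the place of squamous ones. The 4 groups were esophagus at 46 weeks, esophagus at 28 weeks, serum at 46 weeks and serum at 28 weeks of age, with 1 array each. All 4 samples carried the transgene and the disease label, so no group without the transgene was analysed here. The sources used here do not give the number of mice behind an RNA sample. The arrays address which tissue and circulating miRNAs differ between the earlier and the later age.

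A miRNA is cut from a hairpin precursor as a pair of strands, named 5p and 3p by the arm they come from, and pairs with target messenger RNAs mainly through bases 2 to 8, its seed. The hairpin of miR-142 is transcribed in blood-forming cells of nearly all lineages, and both of its strands accumulate. The strand miR-150-5p marks mature B and T lymphocytes and represses the transcription factor Myb. The strand miR-223-3p is abundant in neutrophils and monocytes, where it restrains granulocyte production and activity, and is also carried by platelets.

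RefSeq sequences (build GRCm38.p6) were matched for 3 of the 4 strands and for miR-150-3p, the partner strand of miR-150-5p. They are shown because each has its own seed: these strands do not form a family by sequence. The array names miR-142-3p and miR-142-5p correspond to miR-142a-3p and miR-142a-5p there. Each is written 5′ to 3′ with the seed in capitals.

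miR-142-3p: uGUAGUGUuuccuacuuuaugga
miR-142-5p: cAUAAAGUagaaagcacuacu
miR-223-3p: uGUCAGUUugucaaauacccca
miR-150-3p: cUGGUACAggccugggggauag

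None of these seeds was shared with another of the 1679 mature miRNAs in the RefSeq table. Bases G and C made up 34.8% of miR-142-3p, 33.3% of miR-142-5p and 40.9% of miR-223-3p. The hairpins are shown for the position of the strands, in capitals, because both strands of miR-142 but only the 3p strand of miR-223 gave signal. That of miR-142 lies at chr11:87756864-87756927 on the plus strand and that of miR-223 at chrX:96242817-96242926, also on the plus strand.

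Mir142: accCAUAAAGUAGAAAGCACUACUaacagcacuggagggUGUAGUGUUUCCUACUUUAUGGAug
Mir223: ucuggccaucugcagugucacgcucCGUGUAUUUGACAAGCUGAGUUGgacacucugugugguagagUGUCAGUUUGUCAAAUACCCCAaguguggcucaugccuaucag

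Levels are net signals, the median intensity of a spot minus the mean of the BLANK spots of its array, in arbitrary linear units. A miRNA counted as above the limit when its spot exceeded the mean plus 2 SD of the spots named No Probe, which put the limit at a net signal of 4.87 to 9.06. Between 573 and 764 miRNAs passed it per array, and all 4 described here passed it on every array, as did 485 miRNAs in all. Differences are of log2 net signals, centred on the median difference of all miRNAs above the limit on both arrays. The number of arrays limits the precision. With 1 array per group there was no replicate and no test, and the spot-noise SD beside a difference covers the scatter of control spots within an array only.

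Marker miRNAs differed in level between the sample types. The 7 epithelial miRNAs listed summed to 4482 and 3902 in the 46-week and 28-week esophagus, against 299 and 107 in the 46-week and 28-week serum. The net signal of miR-451a, the main miRNA of erythrocytes, was 88.5 and 86.9 in the 46-week and 28-week esophagus, against 23648 and 36871 in the 46-week and 28-week serum.

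The myeloid strand miR-223-3p had a net signal of 522 in the 46-week esophagus and 399 in the 28-week esophagus, against 1306 in the 46-week serum and 526 in the 28-week serum. The serum array at 46 weeks thus stood above the other 3, which lay closer together. Levels were also centred on each array's median over the 485 miRNAs above the limit on all arrays, unlike the differences, which are centred by pair. On these levels, serum at 46 weeks stood at 5.01 on the log2 scale. Esophagus at 46 weeks, esophagus at 28 weeks and serum at 28 weeks followed in that order, at 3.66, 3.57 and 3.43. Gaps between these lower neighbours were within 2 spot-noise SDs.

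The strand miR-142-3p was higher in esophagus than in serum. Its net signal was 138 in the 46-week esophagus and 127 in the 28-week esophagus, against 55.7 in the 46-week serum and 33.9 in the 28-week serum. Both esophagus arrays were above both serum arrays, and the esophagus arrays differed from each other by less than 2 spot-noise SDs.

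The partner strand miR-142-5p varied less over the arrays than the other 3 in net signal. Its net signal was 216 in the 46-week esophagus and 184 in the 28-week esophagus, against 161 in the 46-week serum and 187 in the 28-week serum. On levels centred on the array median over the 485 miRNAs, the ages were within 1 spot-noise SD of each other in esophagus and also in serum. On that scale the esophagus array at 46 weeks was above the serum array at 46 weeks by 3.49 spot-noise SDs, which cover scatter within an array only.

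The lymphocyte miRNA miR-150-5p was lower in esophagus than in serum. Its net signal was 108 in the 46-week esophagus and 126.3 in the 28-week esophagus, against 449.1 in the 46-week serum and 449.97 in the 28-week serum. Both esophagus arrays were below both serum arrays. On levels centred on the array median over the 485 miRNAs, the esophagus array at 46 weeks was below that at 28 weeks by 5.46 spot-noise SDs. That SD covers scatter within an array only, and the sign of this difference changed under another processing given below.

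**Figure D1:**
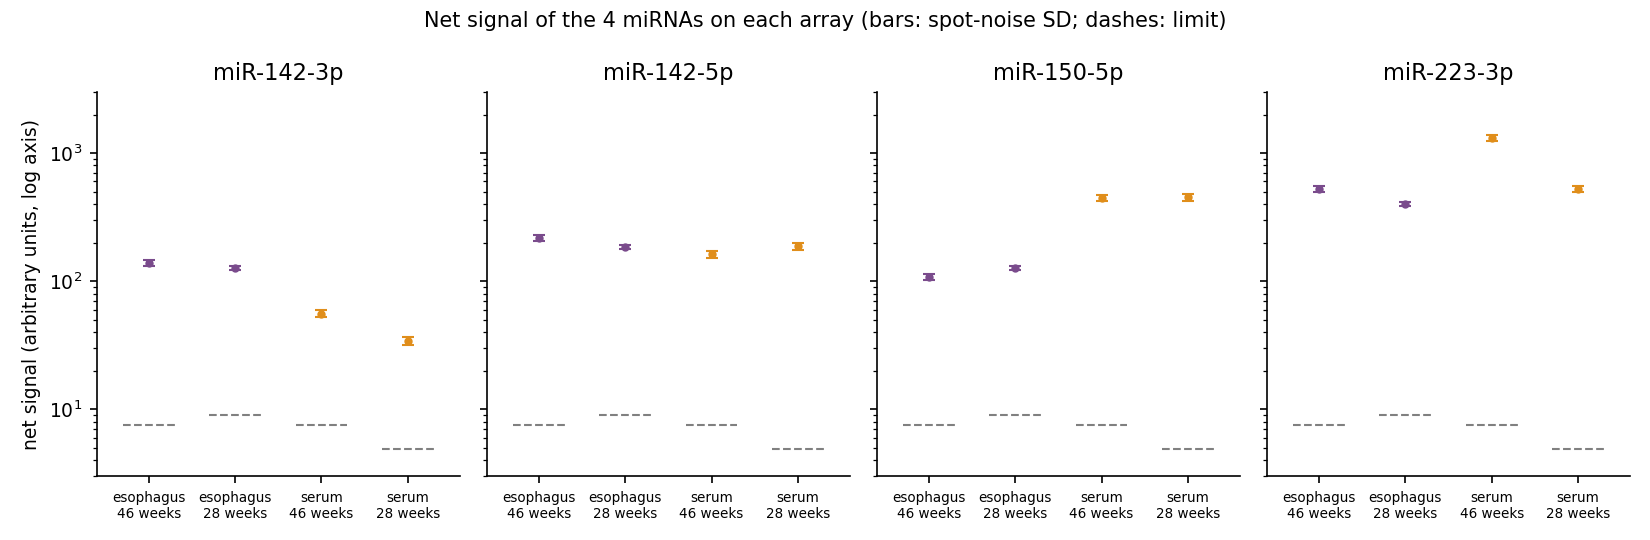
Net signal (arbitrary units, log axis) of each of the 4 miRNAs on the 4 arrays, 1 point per array, with bars for the spot-noise SD and dashes for the limit from spots without probe. All points lie above the limit, miR-223-3p peaks in serum at 46 weeks (1306), and miR-142-3p is higher and miR-150-5p lower in esophagus than in serum.

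The partner strands of the other hairpins were near or below the limit in esophagus. The strand miR-150-3p had a net signal of 8.21 in esophagus at 46 weeks, just above the limit, and of 6.93 at 28 weeks, where it was not above it. In serum it had 79.1 at 46 weeks and 56.4 at 28 weeks, so it was brighter there, as was miR-150-5p. The strand miR-223-5p, the first capital run in the Mir223 hairpin, was above the limit on no array, with net signals from -0.38 in the 28-week esophagus to 6.79 in the 46-week serum.

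The longest run of bases that another mature miRNA shares with miR-142-5p was 13 bases, in miR-3964. The probe for miR-3964 had a net signal of 10.5 in the 46-week esophagus, above the limit, and of 1.90 to 3.75 on the other arrays, below it. For miR-142-3p and miR-223-3p the longest shared runs were 9 bases each.

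The first comparison was that of the ages in esophagus. None of the 4 miRNAs differed at least 2-fold between 46 and 28 weeks, against 0.181% of 554 miRNAs that were at least 2-fold higher and 0.361% that were at least 2-fold lower. The centred log2 difference was 0.15 for miR-223-3p (spot-noise SD 0.09), -0.11 for miR-142-3p (0.09), -0.004 for miR-142-5p (0.09) and -0.46 for miR-150-5p (0.10). Their median was -0.06, against 0 over all miRNAs by centring. The value of miR-150-5p was the one furthest from the median miRNA, and 34 of 554 miRNAs were as low or lower. Under the normexp method (local background, offset 50) followed by quantile normalization, it had the opposite sign, at 0.37. The intensity around that spot was 47.7 at 46 weeks and 121 at 28 weeks. The sign of miR-223-3p also changed under that setting, to -0.30. In such bulk samples, fewer leukocytes and less of a miRNA per leukocyte cannot be told apart.

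Other miRNAs of leukocytes and inflammation also showed no 2-fold difference in esophagus. Of the 12 listed, 9 were above the limit at both ages, with a median of -0.21. They ranged from -0.66 for miR-342-3p, which is abundant in lymphocytes, to 0.40 for miR-21a-5p, which rises in many inflamed tissues. The net signal of miR-342-3p was 34.0 at 46 weeks and 45.6 at 28 weeks, and that of miR-21a-5p was 2233 at 46 weeks and 1443 at 28 weeks. Among markers of other cells, the hepatocyte miRNA miR-122-5p was higher at 46 weeks, at 2.13 (net signals of 107 and 20.8). The erythrocyte miRNA miR-144-3p was lower, at -3.57 (8.01, near the limit, and 80.9). These were the largest rise and fall among the 554 miRNAs. No other listed marker compared there reached 2-fold. Their part in the leukocyte values was not tested.

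In serum, miR-223-3p was higher at 46 than at 28 weeks. Its centred log2 difference was 1.45 (spot-noise SD 0.11), a 2.73-fold higher level, and 12 of 581 miRNAs were as high or higher. It was the one of the 4 past 2-fold, against a background of 7.06% of all miRNAs at least 2-fold higher and 4.48% at least 2-fold lower. Among the 248 miRNAs at least as bright as the dimmest of the 4, the share at least 2-fold higher was 9.27%, and that lower was 5.24%. With 4 miRNAs, 1 past 2-fold does not set them apart from that background.

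The size of that difference depended on the scale. The spike-in control spots averaged 14018 net units in the 46-week serum and 9324 in the 28-week serum. Scaled to them, the median miRNA stood at -0.72 and miR-223-3p at 0.72, below 2-fold, while its distance from the median miRNA was the same by construction. With normexp, the local background and quantile normalization it stood at 0.65, also below 2-fold, and the intensity around the spot was 794 at 46 weeks and 189 at 28 weeks. In the authors' deposited table its values were 2805 and 1233 in serum at 46 and 28 weeks, a log2 difference of 1.19.

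The other leukocyte strands in serum were spread around the median miRNA. The log2 difference of miR-142-3p was 0.85 (spot-noise SD 0.14), a 1.81-fold higher level at 46 weeks that did not reach 2-fold, and 59 of 581 miRNAs were as high or higher. That of miR-150-5p was 0.13 (0.11) and that of miR-142-5p was -0.07 (0.11). Scaled to the spike-in spots, miR-142-3p stood at 0.13, miR-150-5p at -0.59 and miR-142-5p at -0.80. With normexp and quantile normalization, miR-150-5p stood at 1.01, just past 2-fold, and the intensity around its spot was 74.2 at 46 weeks, against 286 at 28 weeks. The spot itself read 501.9 at 46 weeks and 496.2 at 28 weeks. The median of the 4 was 0.49, against 0 over all miRNAs.

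**Figure D2:**
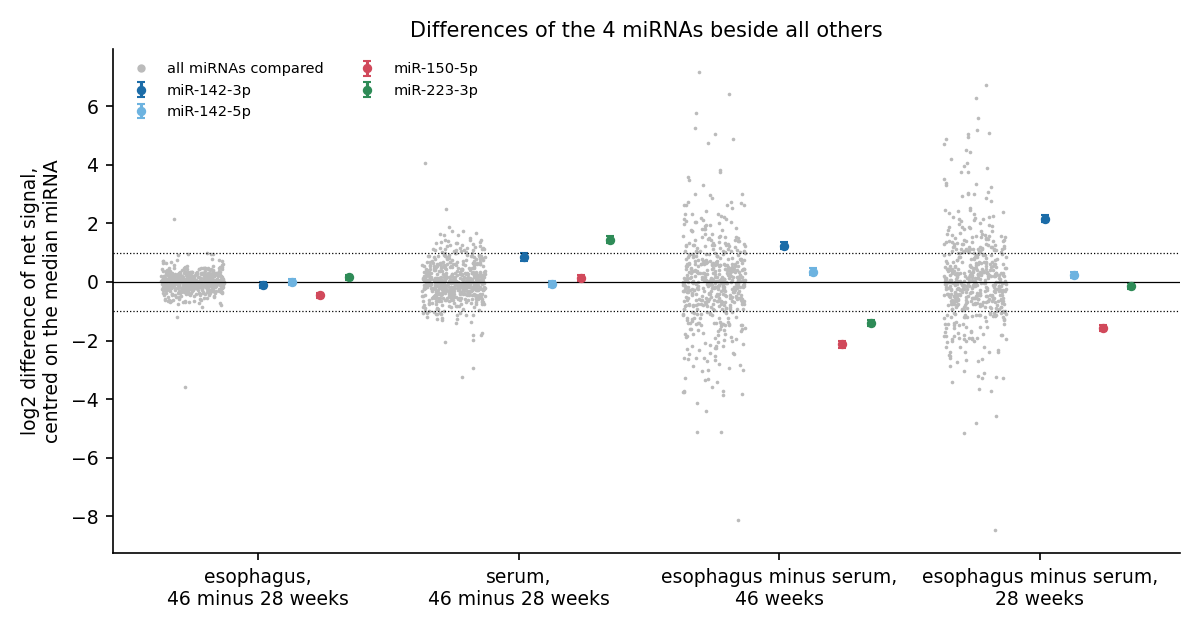
Centred log2 difference of net signal (vertical axis) in the 4 comparisons, with coloured points for the 4 miRNAs (bars: spot-noise SD), grey points for all miRNAs above the limit on both arrays, and dotted lines at 2-fold. In serum miR-223-3p lies at 1.45 for 46 minus 28 weeks, and in esophagus all 4 lie between -0.46 and 0.15.

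Of the 12 other leukocyte and inflammation miRNAs, 10 could be compared between ages in serum, and all 10 had a value above the median miRNA. Their median was 0.54, with a range from 0.02 to 1.12, against 0 over all miRNAs by centring. Values within 1 spot-noise SD of 0 were those of miR-155-5p (0.02, SD 0.41), miR-29a-3p (0.05, SD 0.11) and miR-342-5p (0.12, SD 0.50). Scaled to the spike-in spots, where the median miRNA stood at -0.72, only miR-342-3p and miR-511-3p stayed above 0. The one past 2-fold was miR-511-3p, made from an intron of the macrophage mannose receptor gene Mrc1, at 1.12, so that 1 of 10 was past 2-fold upward against 7.06% of all miRNAs. It was dim, with a net signal of 13.8 at 46 weeks and 6.96 at 28 weeks. The lymphocyte miRNA miR-342-3p stood at 0.90, with 100.4 at 46 weeks and 59.0 at 28 weeks. The smallest value was that of miR-155-5p, which is induced when lymphocytes and macrophages are activated, at 0.02.

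Markers of other cells moved between the serum arrays as well, and their part in the leukocyte values was not tested. The 6 erythrocyte miRNAs summed to 29299 net units at 46 weeks and 44786 at 28 weeks, so they were lower in sum at the later age. Most of the sum was miR-451a, with 23648 at 46 weeks and 36871 at 28 weeks, a centred log2 difference of -0.51. Also lower were miR-144-3p at -1.37, miR-16-5p at -0.49 and miR-25-3p at -0.18 (spot-noise SD 0.11), and miR-144-5p was above the limit at 28 weeks only. The miRNA miR-486-5p was higher at 46 weeks, at 0.27 (0.11). The log2 ratio of miR-23a-3p to miR-451a, a pair used to follow red cell lysis, was 1.37 higher at 46 than at 28 weeks, with miR-23a-3p itself at 0.87. The hepatocyte miRNA miR-122-5p had a net signal of 70.003 at 46 weeks and 591 at 28 weeks. The endothelial and platelet miRNA miR-126-3p was at 0.13, with net signals of 321.3 and 321.6 at 46 and 28 weeks. Its partner strand miR-126-5p was lower, at -0.53 (spot-noise SD 0.23), with dimmer signals of 17.6 and 28.0 at 46 and 28 weeks. Epithelial miRNAs summed to 299 at 46 weeks and 107 at 28 weeks, with 4 of 7 above the limit at 46 weeks and 7 of 7 at 28 weeks, where the limit was lower. The higher epithelial sum at 46 weeks came mainly from miR-205-5p (179 against 35.4 at 28 weeks) and miR-203-3p (62.7 against 18.7). Smaller rises were those of miR-200c-3p (23.0 against 15.2) and miR-141-3p (7.10, below the limit, against 5.44). Net signals were lower at 46 weeks for miR-200a-3p (6.42 against 10.6), miR-200b-3p (14.5 against 15.3) and miR-429-3p (6.15 against 6.74). Hepatocyte and striated muscle miRNAs were lower in sum at 46 weeks. The striated muscle miRNAs summed to 163 at 46 weeks and 868 at 28 weeks, with 3 of 4 and 4 of 4 above the limit. Smooth muscle miRNAs summed to 224 at 46 weeks and 257 at 28 weeks, with 2 of 2 above the limit at both ages. These 2 moved in opposite directions. The centred log2 difference was -0.80 for miR-143-3p (57.7 and 110.7 at 46 and 28 weeks) and 0.32 for miR-145a-5p (165.9 and 146.1).

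Set side by side, the age difference of miR-223-3p was 1.45 in serum and 0.15 in esophagus. The serum value exceeded the esophagus value by 1.29 (spot-noise SD 0.14), and 21 of the 485 miRNAs above the limit on all arrays had as large an excess or larger. For miR-142-3p the excess was 0.96 (0.17), reached by 50 of 485, for miR-150-5p it was 0.59 (0.15) and for miR-142-5p it was -0.07 (0.15). With 1 array per group, none of these differences between sample types could be tested. Scaled to the spike-in spots, the excess of miR-223-3p was 0.58 and that of miR-142-3p 0.25, while that of miR-150-5p turned to -0.13 and that of miR-142-5p was -0.79.

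**Figure D3:**
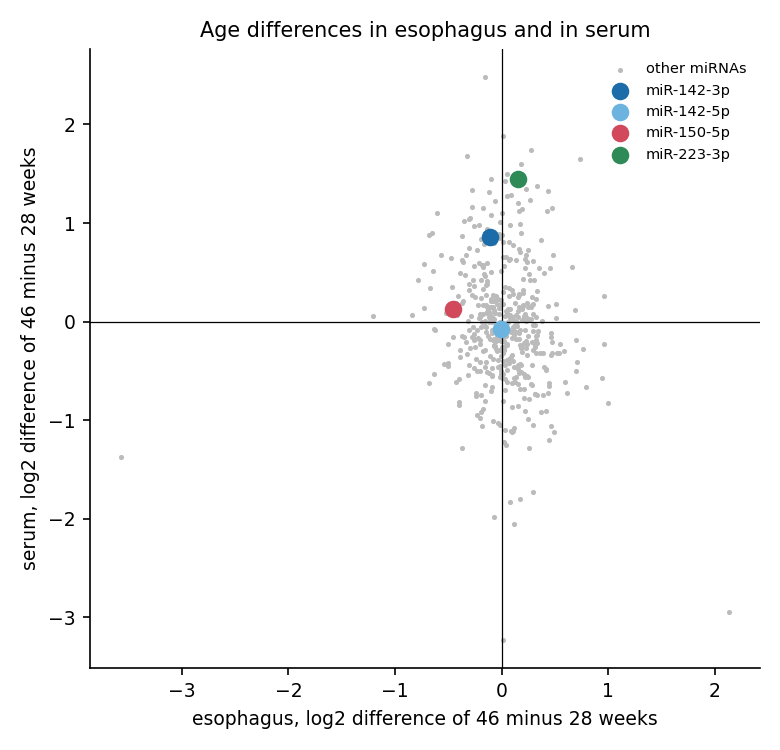
Centred log2 difference of 46 minus 28 weeks in esophagus (horizontal axis) and in serum (vertical axis) for the 485 miRNAs above the limit on all arrays, with the 4 miRNAs in colour. The strands miR-223-3p (1.45 in serum, 0.15 in esophagus) and miR-142-3p (0.85 in serum, -0.11 in esophagus) lie high on the serum axis and near 0 on the esophagus axis, and miR-142-5p lies near the origin on this median-centred scale.

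Both strands of miR-142 come from the same hairpin. As for any 2 probes, a constant factor between arrays leaves their ratio unchanged. In esophagus the age differences of the 3p and the 5p strand lay within 1 spot-noise SD of each other, with 3p minus 5p at -0.11 (spot-noise SD 0.13). In serum the difference was 0.93 (0.18), a 1.90-fold higher 3p to 5p ratio at 46 weeks. It was 0.40 with normexp and quantile normalization. Such a gap between strands was not rare on these arrays. Among the 108 hairpins with both strands measured in serum, 25 (23.1%) had a gap as large in either direction, and the median gap was 0.49. For miR-150 the difference of 3p minus 5p in serum was 0.49 (0.17), and 50% of the hairpins had one as large.

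**Figure D4:**
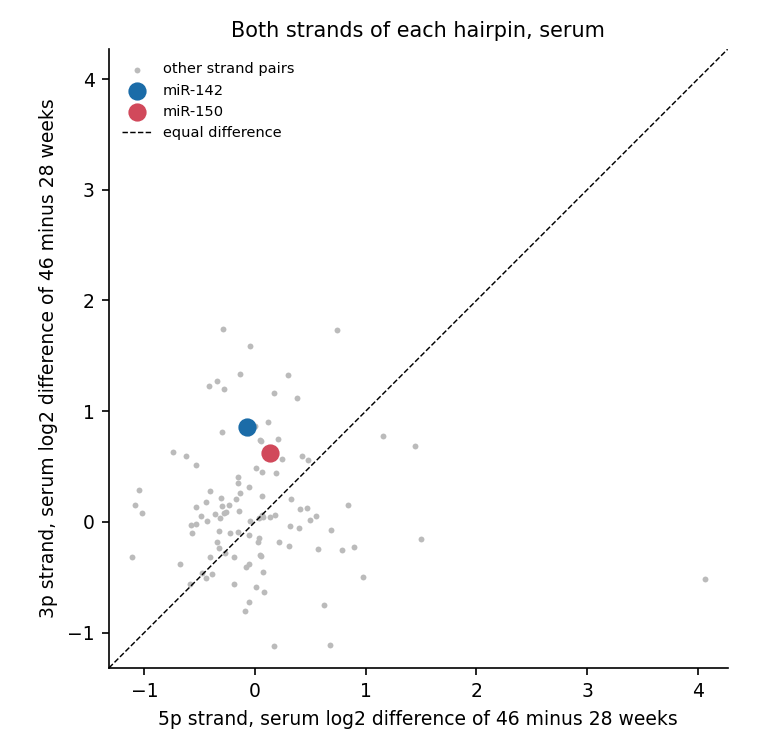
Centred log2 difference of 46 minus 28 weeks in serum for the 5p strand (horizontal axis) and the 3p strand (vertical axis) of the 108 hairpins with both strands above the limit, with miR-142 and miR-150 in colour and a dashed line for equal differences. Both lie above the line, miR-142 at -0.07 and 0.85 and miR-150 at 0.13 and 0.62, within the cloud of other pairs.

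Esophagus and serum were then compared at each age. The RNA of esophagus and serum was extracted with different kits, and the effects of kit and of tissue or serum origin cannot be told apart. At 46 weeks 3 of the 4 miRNAs differed at least 2-fold. The strand miR-142-3p was higher in esophagus, at 1.24 on the log2 scale (spot-noise SD 0.13), while miR-150-5p at -2.12 (0.11) and miR-223-3p at -1.39 (0.11) were lower. Differences of this size were common: of 543 miRNAs, 18.2% passed 2-fold upward in esophagus and 19.5% downward.

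At 28 weeks miR-142-3p was again higher in esophagus, at 2.16 (spot-noise SD 0.11), and miR-150-5p again lower, at -1.57 (0.09). The strand miR-223-3p was at -0.14 (0.09), and its sign changed between scalings, to 0.11 when centred on the brightest 25% of miRNAs and -0.79 when scaled to the spike-in spots. At this age 21.7% of 549 miRNAs passed 2-fold upward in esophagus and 16.8% downward. The strand miR-142-5p was within 2-fold at both ages, at 0.35 (0.11) and 0.24 (0.09) at 46 and 28 weeks. With normexp, the local background and quantile normalization, only miR-150-5p remained past 2-fold at each age, at -1.78 and -1.09 at 46 and 28 weeks.

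The lymphocyte pair from the miR-150 hairpin was lower in esophagus as a pair. At 46 weeks miR-150-3p stood at -3.34 (spot-noise SD 0.36) beside the -2.12 of miR-150-5p. At 28 weeks, where miR-150-3p was not above the limit in esophagus, it was at least 5.19-fold lower there than in serum, counted against the lowest net signal above the limit on that array.

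The ratio of the miR-142 strands also differed between sample types. The difference of 3p minus 5p between esophagus and serum was 0.89 (spot-noise SD 0.17) at 46 weeks and 1.92 (0.15) at 28 weeks, a 3p to 5p ratio that was 1.85-fold and 3.79-fold higher in esophagus at 46 and 28 weeks. At 28 weeks it was 0.84 on the log2 scale with normexp and quantile normalization. Of the hairpins with both strands measured, 50 of 95 at 46 weeks and 14 of 91 at 28 weeks had a gap as large.

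Among the other leukocyte and inflammation miRNAs, 5 of the 9 that could be compared passed 2-fold upward in esophagus at 46 weeks and 1 passed it downward, against 18.2% and 19.5% of all miRNAs. The higher ones were miR-155-5p at 2.09, miR-146a-5p at 2.05, miR-146b-5p at 1.80, miR-27a-3p at 1.82 and miR-21a-5p at 1.52, and the lower one was miR-342-3p at -1.63. At 28 weeks 7 of 9 passed it upward and none downward, against 21.7% and 16.8% of all miRNAs. They were the same 5 together with miR-511-3p at 1.40 and miR-29a-3p at 1.15. The medians were 1.52 and 1.57 at 46 and 28 weeks, against -0.52 and 0.05 for the 4 miRNAs described here. Among miRNAs at least as bright as the dimmest of the 4, 29.3% passed 2-fold upward and 26.8% downward at 46 weeks. At 28 weeks these shares were 29.1% and 28.0%. Some of those listed, such as miR-155-5p, were dimmer than that. Scaled to the spike-in spots, the median miRNA stood at -0.65 at 28 weeks. On that scale miR-21a-5p, miR-511-3p and miR-29a-3p fell below 2-fold at 28 weeks. The miRNAs miR-146a-5p, miR-146b-5p, miR-155-5p and miR-21a-5p are induced by inflammatory signals in many cell types and are not limited to leukocytes.

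The 4 strands did not share a common pattern over the arrays. The root mean square distance between their centred log2 profiles over the 4 arrays ran from 0.74 for miR-150-5p and miR-223-3p to 1.80 for miR-142-3p and miR-150-5p. The strands miR-142-3p and miR-142-5p of the same hairpin were 0.78 apart. Those most like miR-142-3p among 484 other miRNAs were miR-378b, miR-378a-3p, miR-378d and miR-378c, at distances of 0.09 to 0.13, which share most of their sequence, and then miR-431-3p at 0.16. The median distance was 0.99.

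Closest to miR-223-3p were miR-181b-5p at 0.07 and miR-215-5p at 0.07, followed by miR-193b-3p, miR-423-3p and miR-365-3p at 0.20 each, against a median of 0.77. The nearest to miR-150-5p were miR-598-5p at 0.13 and miR-128-1-5p at 0.17, then miR-93-5p, miR-5115 and miR-3090-3p at 0.19 to 0.22, against a median of 0.97. The profile of miR-142-5p was most like miR-675-5p, miR-1199-5p, let-7d-5p, miR-30b-5p and miR-1966-5p at 0.05 to 0.07, against a median of 0.44. These last distances were smaller than the spot-noise SDs of the age differences of miR-142-5p (0.09 and 0.11), so their order is not resolved. Some of the miRNAs named were near the limit. The net signal of miR-1199-5p was 9.28 in the 28-week esophagus. That of miR-431-3p was 7.96 and 5.90 in serum at 46 and 28 weeks. These likenesses rest on 4 arrays and are a description.

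**Figure D5:**
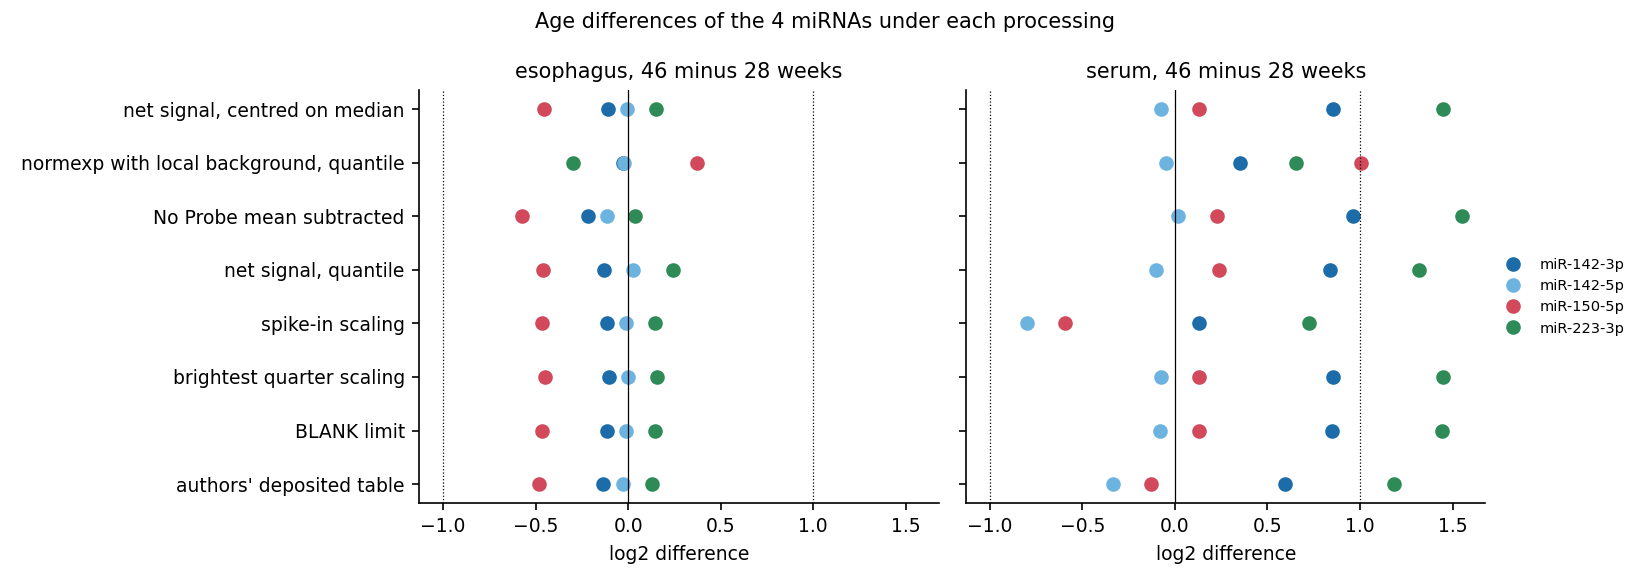
Log2 difference of 46 minus 28 weeks (horizontal axis) of the 4 miRNAs in esophagus (left) and serum (right) under the net signal centred on the median and 7 other ways of processing (rows), with dotted lines at 2-fold. In serum miR-223-3p lies above 0 in every row, from 0.65 to 1.55, and in esophagus no point passes 2-fold.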

How the data were processed

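Each sample was hybridised in 1 colour (Hy5) to a Toray 3D-Gene array, after extraction with mirVana for tissue and miRNeasy Serum/Plasma for serum, per the labels' protocols. The deposited scanner files hold linear intensities of each spot and its surroundings, with 3 scanner gains joined by a fitted line, per the file headers, neither background-corrected nor normalized. The authors' deposited value table holds linear intensities: set against the scanner values, a column equalled the spot after subtraction of nearly the BLANK mean (largest departure 0.05), multiplied by a constant that put its median at 25.

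The members and lists were chosen with earlier results of these data known. Net signals were the spot minus the BLANK mean. Differences were log2 values of 2 arrays, centred on their median over miRNAs above the limit. The spot-noise SD was built from the scatter of the 97 No Probe spots and the relative scatter of 16 spike-in controls (coefficient of variation 3.23% to 5.51%). BLANK spots were not used for the limit, because 39.2% to 77.3% of No Probe spots passed the BLANK mean plus 2 SD. The local background was not used, because it differed several-fold between arrays around spots of close intensity, such as that of miR-150-5p in serum. Called means at least 2-fold. Named were the members, their partner strands, the 5 miRNAs nearest in pattern to each, and list members past 2-fold or at the ends of the list. Alternatives were normexp with an offset of 50 and quantile normalization, No Probe subtraction, quantile normalization of net signals, scaling to spike-in spots or to the brightest 25% of miRNAs, the BLANK limit and the authors' table. The calculation was tested on simulated data, with changes larger than the called fold put on miRNAs well above the limit. Recovery of 2-fold changes, or of changes near the limit, was not tested. Python 3.11.15, pandas 2.3.3, numpy 2.4.6, matplotlib 3.10.9, R 4.3.3, limma 3.58.1 and jsonlite 2.0.0 were used.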

Additional observations from a re-analysis of the deposited data

Results flagged for a closer look

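For 2 of the 4 miRNAs the age difference pointed in opposite directions in the circulation and the tissue. For miR-142-3p the log2 value of 46 over 28 weeks was 0.85 in serum, against -0.11 in esophagus. For miR-150-5p it was 0.13 in serum, against -0.46 in esophagus. For miR-142-3p the directions were opposite under all 8 settings run. For miR-150-5p they were the same under 3 of them: -0.59 in serum and -0.46 in esophagus with spike-in scaling, -0.13 and -0.48 in the authors' deposited table, and 1.01 and 0.37 with normexp and quantile normalization. Whether these directions truly differ was not tested, since each group had 1 array. Opposite signs were common, with 267 of the 485 miRNAs above the limit on all arrays. The esophagus value of miR-142-3p and the serum value of miR-150-5p were each within 2 spot-noise SDs of 0.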

How the results depend on the processing

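Each of 4 comparisons was recomputed under 7 alternatives. No difference of the 4 miRNAs that passed 2-fold on median-centred net signals changed sign. Of 168 recomputed values of the 4 miRNAs and of the miR-142 strand ratio, 97 moved by less than 1 spot-noise SD and 71 by more. In serum, miR-223-3p stayed above the median miRNA throughout (0.65 to 1.55) and past 2-fold in 6 of 8 settings, and miR-142-3p ran from 0.13 to 0.96, but miR-150-5p ran from -0.59 to 1.01. In esophagus miR-150-5p ran from -0.57 to 0.37.

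Of the 4 miRNAs, the count past 2-fold between ages in serum was 1, and 0 with spike-in scaling. It was also 1 with normexp, but there miR-223-3p (0.65) fell short and miR-150-5p (1.01) passed. Between esophagus and serum it was 3 and 2 at 46 and 28 weeks, and 1 at each age with normexp, the local background and quantile normalization. Over all miRNAs, the age count in esophagus was 3, and became 6 with normexp, 16 with No Probe subtraction, 25 with the BLANK limit and 46 in the authors' deposited table. In serum it was 67, against 20 with normexp, 172 with spike-in scaling and 120 in the authors' deposited table. Between sample types, 205 and 211 at 46 and 28 weeks became 94 and 90 with normexp. These counts were 206 and 259 with spike-in scaling, 249 and 289 with the BLANK limit, and 294 and 319 in the authors' deposited table. Spike-in scaling shifted all miRNAs of a comparison by the same amount. Normexp added an offset, and the BLANK limit and the table kept more miRNAs. The part of these last settings in the changed counts was not tested.

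Higher and lower calls in serum were 41 and 26, against 5 and 167 with spike-in scaling and 31 and 89 in the authors' deposited table. Their medians over all miRNAs were -0.72 and -0.26. Between esophagus and serum at 28 weeks they were 119 and 92, against 57 and 202 with spike-in scaling (median -0.65) and 146 and 68 when centred on the brightest 25% of miRNAs (median 0.25). In esophagus they were 1 and 2, against 2 and 2 when centred on the brightest 25%, 14 and 2 with No Probe subtraction, 4 and 2 with normexp, 12 and 13 with the BLANK limit and 18 and 28 in the authors' deposited table. No paired analysis was possible because each group has 1 array. Signals near the limit, such as those of miR-150-3p in esophagus and miR-511-3p in serum, carry the least precision.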
